A study of Mus musculus with 28 samples.

Results

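The 10 genes described here encode the core of the inflammasome and of the interleukin-1 (IL-1) family: the sensors *Nlrp3* and *Aim2*, the adaptor *Pycard* (ASC), the proteases *Casp1* and *Casp4* (caspase-11 in mice), the pore-forming effector *Gsdmd* (gasdermin D), the cytokines *Il1a*, *Il1b* and *Il18*, and the receptor antagonist *Il1rn*. They were chosen by gene symbol as a pathway, and all 10 were found among the 48587 genes of the count table and passed the filter on low counts. RNA was sequenced from hippocampal microglia of 28 mice, sorted as CD11b+CD45low cells that lacked lymphocyte, Ly6C and Ly6G staining. By housing, 5 WT and 3 5xFAD mice were SPF, 4 WT and 5 5xFAD mice were GF, and 5 WT and 6 5xFAD mice were ABX, all aged 16 weeks per the labels and of the C57BL/6J background. 5xFAD mice were heterozygous males that carry human APP and PS1 with familial Alzheimer's disease mutations under the neuronal Thy-1 promoter, so the transgenes are not driven in microglia, and WT mice were littermates without them. SPF (specific pathogen free) mice had a normal flora, GF (germ-free) mice had none, and ABX mice were SPF mice that drank vancomycin, cefoxitin, gentamicin and metronidazol for 8 weeks per the labels. GF animals were raised in Bern and all others in Freiburg, so an effect of germ-free housing and one of origin cannot be told apart. One animal, FAD_GF_201, is a 5xFAD mouse by title and genotype and a WT mouse by its description, and was used as GF 5xFAD.

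An inflammasome is a protein platform in the cytosol. A sensor such as NLRP3, which responds to damage, crystals and aggregates, or AIM2, which binds DNA, recruits ASC and caspase-1. Caspase-1 cuts pro-IL-1β and pro-IL-18 into their active forms and cuts gasdermin D, which then opens pores in the cell membrane. Amyloid-β is a known trigger of NLRP3 in microglia. In most macrophages *Il1b* and *Nlrp3* mRNA are induced by NF-κB, whereas much of the pathway is controlled at the protein level, which mRNA does not measure.

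Between 14441610 and 29977395 reads fell on genes per library, with a median of 19499296.5. Microglial marker genes were abundant in every mouse: 10 of them summed to between 65024 and 72706 CPM (reads relative to the library total) in WT mice and to between 50728 and 62398 CPM in 5xFAD mice, without overlap between the genotypes. Markers of other cells moved with some groups. The 9 neutrophil genes summed to 61.1 to 263 CPM in the 3 SPF 5xFAD mice and to 144 CPM in mouse FAD_ABX_1151, and to at most 1.38 CPM in all the other mice. *S100a8*, *S100a9*, *Camp*, *Ngp* and *Ltf* made up these sums, while the defining gene *Ly6g* reached at most 0.266 CPM. In the sample descriptions, these 4 libraries and the SPF WT and ABX WT libraries carry an order number and an animal number. The GF libraries and the other 5 ABX 5xFAD libraries carry an order number and a group name, the third style. The 4 libraries were treated as a second numbering style, apart from the SPF WT and ABX WT libraries. The descriptions do not name this split. Only repeated order numbers and separate ranges of animal numbers set these styles apart, so it is inferred. With this split, style and genotype cannot be told apart in SPF or in ABX mice. With or without it, style and housing cannot be told apart between GF and SPF 5xFAD mice. The same holds between GF mice and SPF or ABX WT mice, while GF 5xFAD and GF WT mice lie within the same style. The average over housings includes the SPF and ABX comparisons. The 5 monocyte genes summed to 16.0 to 39.0 CPM in SPF 5xFAD, 14.4 to 52.0 CPM in ABX 5xFAD and 6.02 to 24.9 CPM in GF 5xFAD mice, against 6.76 to 8.57 CPM in SPF WT, 3.75 to 9.32 CPM in ABX WT and 3.72 to 16.9 CPM in GF WT mice. Of these, *Chil3* stood at 6.22 to 29.6 CPM in SPF 5xFAD and *Ccr2* at 8.86 to 50.8 CPM in ABX 5xFAD mice, while *Ly6c2* reached at most 1.01 CPM. The 6 border-associated macrophage genes, led by *Mrc1*, summed to 27.3 to 185.5 CPM in ABX 5xFAD, 8.63 to 54.7 CPM in GF 5xFAD, 10.5 to 35.4 CPM in GF WT, 13.7 to 22.8 CPM in SPF 5xFAD and at most 8.15 CPM in SPF WT and ABX WT mice. The part of other cells in the results below was not tested, except where a value is given. In sorted bulk RNA, fewer expressing cells and less RNA per cell cannot be told apart.

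The members spanned a wide range of levels. Per transcript length, in TPM (transcripts scaled to a fixed total per library), *Gsdmd* was highest with a median of 350.1 TPM over the 28 mice. *Pycard* (199.2 TPM) and *Il1a* came next and their ranges overlapped almost fully, from 146 to 274 TPM and from 136 to 326 TPM. *Casp1* (137 TPM) and *Il18* (132 TPM) formed the next such pair. The sensors followed with 55.7 TPM for *Aim2* and 40.4 TPM for *Nlrp3*, then *Casp4* with 13.6 TPM. *Il1b* and *Il1rn* were lowest: *Il1b* had a median of 9.73 TPM, between 0.328 and 42.7 TPM, and *Il1rn* 0.862 TPM, between 0 and 5.07 TPM. Thus 5 members lay above the 93rd percentile of the tested genes, and the lowest *Il1a* level of any mouse was above the highest *Il1b* level.

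**Figure D1:**
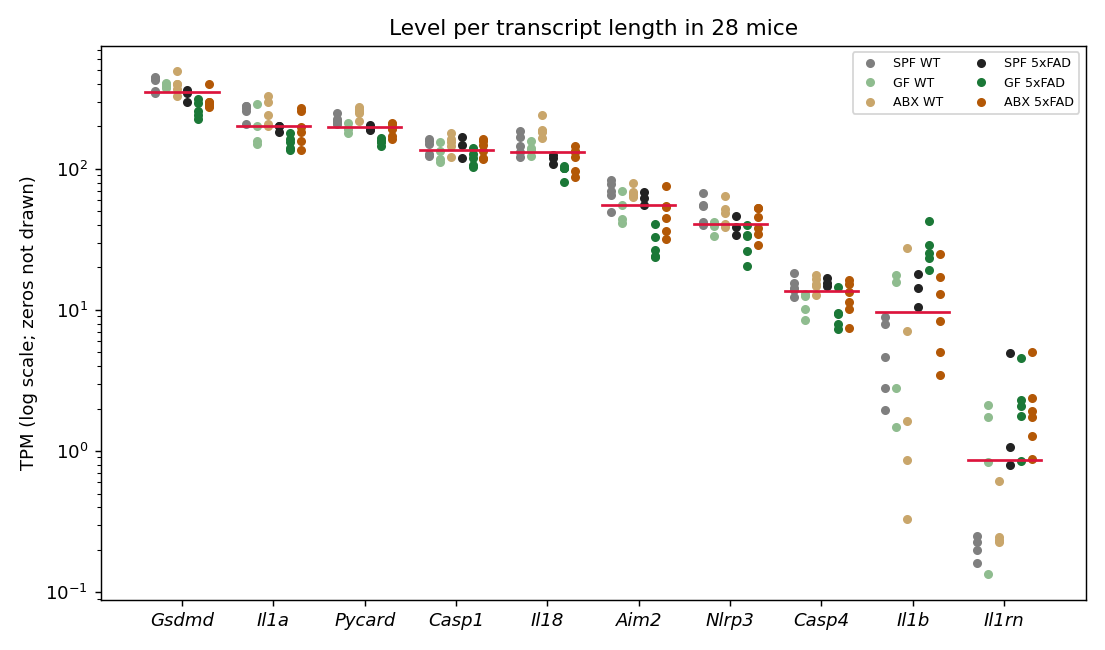
Level of each member per transcript length, in TPM on a log axis, with 1 point per mouse coloured by group and a red line at the median over 28 mice. *Gsdmd* lies highest at 350.1 TPM and *Il1rn* lowest at 0.862 TPM; the spread between mice is widest for *Il1b* and *Il1rn*, and points at 0 are not drawn.

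The first question was how these genes differ between 5xFAD and WT microglia. Averaged over the SPF, GF and ABX housings, the IL-1 receptor antagonist *Il1rn* and the cytokine *Il1b* rose in 5xFAD microglia, while *Il18*, *Gsdmd*, *Aim2* and *Pycard* fell modestly. The log2 fold change was 2.74 ± 0.44 for *Il1rn* (SE, adjusted p = 1.99e-05) and 1.40 ± 0.45 for *Il1b* (0.0203). The falls were of -0.36 ± 0.09 for *Il18* (0.00228), -0.25 ± 0.06 for *Gsdmd* (0.00195), -0.33 ± 0.11 for *Aim2* (0.0199) and -0.15 ± 0.05 for *Pycard* (0.0175). The summed microglial markers were also lower in every 5xFAD mouse than in every WT mouse, and the part of this in the falls was not tested. So 6 of 10 members passed, where 25.1% of the 15298 tested genes did: 2 were higher, where 14.3% of genes were, and 4 were lower, where 10.8% were. The median log2 fold change of the 10 members was -0.15, and -0.03 over all tested genes. *Nlrp3* (-0.16 ± 0.10, 0.299), *Il1a* (-0.21 ± 0.10, 0.145), *Casp1* (0.08 ± 0.08, 0.572) and *Casp4* (0.02 ± 0.12, 0.931) did not pass. All p-values are from the quasi-likelihood test of edgeR, adjusted by Benjamini-Hochberg over all tested genes, and measure the spread between mice. In SPF mice alone 1 member passed (*Il1rn*; background 4.57%), in GF mice 2 (*Aim2* and *Gsdmd*, both lower; background 15.6%, and 6.2% lower), and in ABX mice 4 (background 14.4%), of which *Il1rn* was higher (9.45% of genes) and *Il18*, *Pycard* and *Gsdmd* were lower (4.98%). None of the 10 members passed a test of whether the 5xFAD effect differs between housings, with 1 unadjusted p below 0.05 for GF against SPF (0% of genes called), 0 for ABX against SPF (0%) and 1 for ABX against GF (1.76%). DESeq2 and limma voom with quality weights also called 0 members in these 3 tests. Effects that passed in one housing and not in another are thus not shown to differ.

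**Figure D2:**
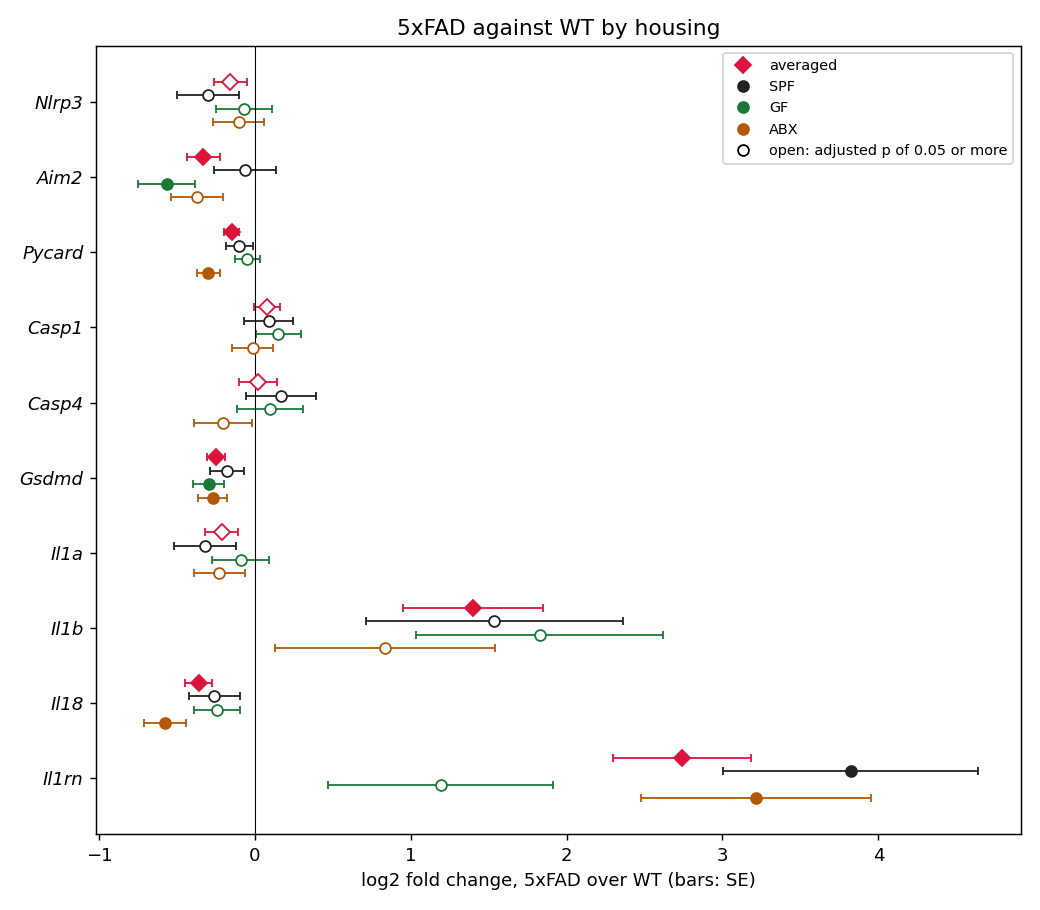
Log2 fold change of 5xFAD over WT for each member, with SE bars, averaged over housings (diamonds) and within SPF, GF and ABX mice (circles); filled symbols have an adjusted p below 0.05. *Il1rn* at 2.74 and *Il1b* at 1.40 lie to the right of 0, and *Il18* at -0.36, *Aim2* at -0.33, *Gsdmd* at -0.25 and *Pycard* at -0.15 to the left.

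Of the 6 groups combined, the same 6 members differed by an F test (background 33.2%), with F = 9.59 for *Il1rn*, 7.33 for *Aim2*, 6.56 for *Pycard*, 6.23 for *Il18*, 4.35 for *Gsdmd* and 3.71 for *Il1b*. The second question was what housing does to these genes within a genotype. Between GF and SPF 5xFAD mice 1 member passed (*Aim2*, lower; background 12.8%, and 5.86% lower), and between ABX and GF 5xFAD mice 1 passed (*Aim2*, higher; background 10.6%, and 4.52% higher). Between ABX and GF WT mice *Pycard* alone passed (background 6.88%), and between GF and SPF WT mice no member did by edgeR (background 1.62%), with 1 unadjusted p below 0.05, while DESeq2 (background 4.71%) and voom (10.7%) each called 1, *Il1rn*. ABX and SPF mice differed in no member by edgeR in 5xFAD (background 0%, 0 unadjusted p below 0.05) or in WT (background 0%, 2 unadjusted p below 0.05), and by neither DESeq2 nor voom.

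**Figure D3:**
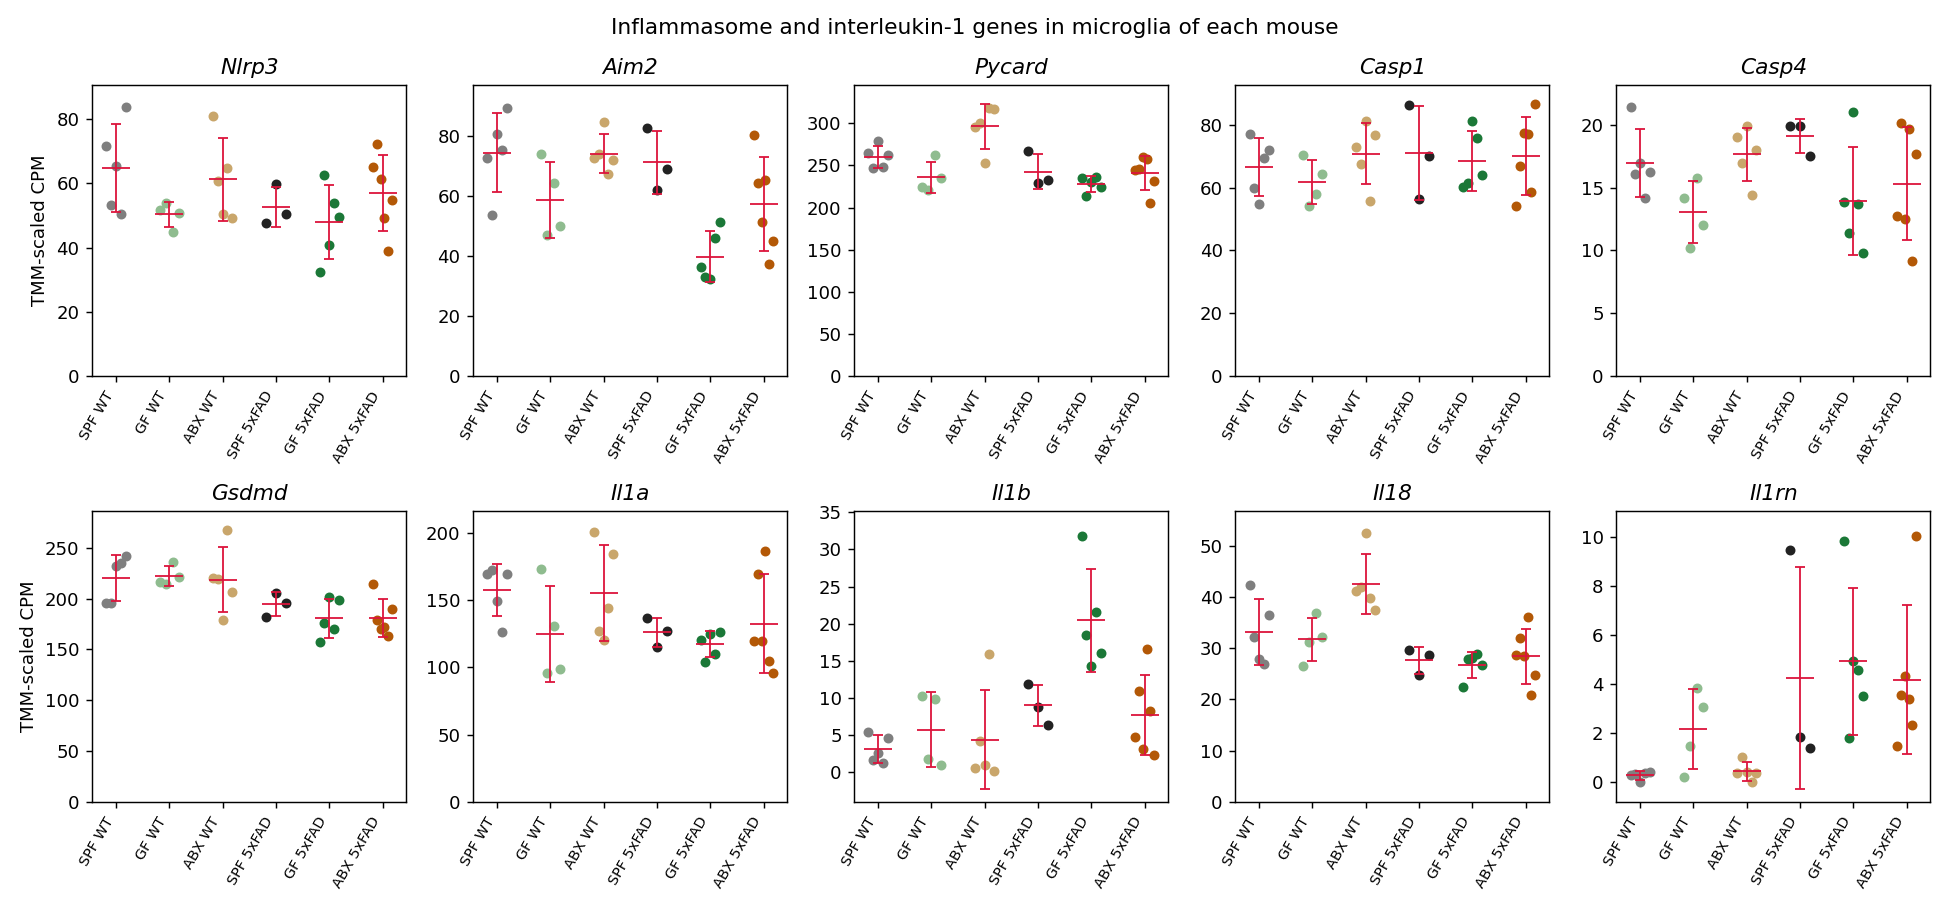
TMM-scaled CPM of each member (1 panel each, own vertical scale) in every mouse by group, with the group mean and SD in red. *Il1rn* is near 0 in SPF WT and ABX WT mice, *Aim2* is lowest in GF 5xFAD at 39.7 CPM, and *Il1b* is highest in GF 5xFAD at 20.5 CPM; SD bars that reach below 0 belong to groups with few high mice.

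The sensor *Aim2* was lower in GF than in SPF 5xFAD microglia, groups in which housing, origin and numbering style cannot be told apart. AIM2 binds double-stranded DNA in the cytosol. Its level in CPM scaled by the trimmed mean of M-values (TMM) was 36.3, 32.9, 32.4, 45.8 and 51.3 in the 5 GF 5xFAD mice, against 82.6, 62.0 and 69.0 in the SPF 5xFAD mice. Every GF 5xFAD mouse lay below every SPF 5xFAD mouse. The other groups held 53.7 to 89.3 CPM in SPF WT, 46.9 to 74.0 CPM in GF WT, 67.3 to 84.5 CPM in ABX WT, and 37.2 to 80.1 CPM with a median of 57.8 in ABX 5xFAD mice, so the latter spanned the gap between GF and SPF 5xFAD mice. In GF against SPF 5xFAD microglia *Aim2* fell by 0.84 (log2; SE 0.20, adjusted p = 0.00603 by edgeR), and this call held in all 37 alternative analyses, with adjusted p-values up to 0.0359. It fell by 0.57 in GF 5xFAD against GF WT mice (SE 0.18, 0.0328), a call lost in 7 of 38 alternatives, among them when WT_GF_199 (0.158), WT_GF_230 (0.0811), FAD_GF_181 (0.0767), FAD_GF_182 (0.0901) or FAD_GF_184 (0.0896) was left out, and with voom (0.0787). In ABX mice the difference was -0.37 ± 0.16 (0.136), and it passed without FAD_ABX_1151 (-0.49, 0.0332). The difference of 0.53 between ABX and GF 5xFAD mice (SE 0.17, 0.0399) was lost in 10 of 38, among them without FAD_ABX_1151 (0.120), FAD_ABX_1452 (0.0766), FAD_ABX_1455 (0.0718), FAD_GF_181 (0.0860), FAD_GF_182 (0.0980) or FAD_GF_184 (0.103), and with voom (0.0886). Between SPF 5xFAD and SPF WT mice the difference was -0.06 ± 0.20 (0.958). The averaged fall of 0.33 in 5xFAD missed the threshold without FAD_SPF_1146 (0.0590). In GF against SPF WT mice the difference was -0.34 ± 0.18 (0.363), and the 5xFAD effects in GF and SPF mice differed by -0.50 ± 0.27 (0.623).

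The *Aim2* gene lies at chr1:173350879-173466040 on the plus strand (GRCm38), and its promoter is shown because it held the κB core GGGANTTTC, which the other member promoters did not. The result rests on these letters, since the *Casp4* windows hold another form of the κB site. In the 250 bases before the RefSeq start, at chr1:173420354-173420603 (GRCm38.p6, plus strand), capitals mark this core, 154 bases before the start, and the core of the macrophage factor PU.1, GAGGAAGT, 113 bases before it.
Aim2: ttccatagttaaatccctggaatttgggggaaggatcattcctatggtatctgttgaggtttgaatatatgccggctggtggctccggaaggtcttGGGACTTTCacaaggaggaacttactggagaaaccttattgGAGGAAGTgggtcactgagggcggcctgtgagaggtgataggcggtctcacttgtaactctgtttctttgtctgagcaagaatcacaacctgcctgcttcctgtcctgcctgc
Of 32851 RefSeq promoters of this length, 0.941% hold GGGANTTTC and 2.44% hold GAGGAAGT on either strand. The match is one of letters and does not show a bound factor.

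*Nlrp3*, the sensor most studied in amyloid models, was called by edgeR in no comparison. It ranged from 50.4 to 83.8 CPM in SPF WT and 47.8 to 59.8 CPM in SPF 5xFAD mice, from 44.9 to 53.9 CPM in GF WT and 32.6 to 62.6 CPM in GF 5xFAD mice, and from 49.3 to 81.1 CPM in ABX WT and 39.0 to 72.4 CPM in ABX 5xFAD mice, so the groups overlapped. Within housings the log2 difference between 5xFAD and WT was -0.07 ± 0.18 for GF, -0.10 ± 0.16 for ABX and -0.30 ± 0.20 for SPF mice.

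The adaptor *Pycard* had its highest mean in ABX WT mice. Its level was 295, 300.2, 252, 318 and 317 CPM in ABX WT and between 206 and 259.6 CPM with a median of 245 in ABX 5xFAD mice, and only 1 ABX WT mouse reached into the range of the latter. SPF WT mice held 247 to 279 CPM, GF WT 221 to 262 CPM, SPF 5xFAD 228.9 to 267 CPM and GF 5xFAD 214 to 236 CPM. In ABX mice *Pycard* fell by 0.30 in 5xFAD (log2, SE 0.07, adjusted p = 0.00497 by edgeR), which was lost when only the 2 groups were fitted (0.0591). The 5xFAD differences of -0.05 ± 0.08 in GF (0.754) and -0.10 ± 0.09 in SPF mice (0.739) did not pass. ABX WT exceeded GF WT mice by 0.33 ± 0.08 (0.0132), which missed the threshold without WT_GF_229 (0.0606), while ABX and SPF WT mice differed by 0.19 ± 0.08 (adjusted p = 1), which did not pass. The averaged fall of 0.15 missed it without FAD_SPF_1146 (0.0531) or FAD_SPF_1148 (0.0651) and without the filter on low counts (0.0628). Exons of *Pycard* share 485 bases with *Gm45205* on the opposite strand, which had 13 to 44 reads per library, and whether counting used strand is not given in the sources used here.

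The proteases were called by edgeR in no comparison. *Casp1*, which activates IL-1β and IL-18, averaged 66.6 ± 9.13 CPM in SPF WT (SD, n = 5) and 70.9 ± 15.0 in SPF 5xFAD (n = 3), 61.7 ± 7.06 in GF WT (n = 4) and 68.5 ± 9.42 in GF 5xFAD (n = 5), and 70.8 ± 9.79 in ABX WT (n = 5) and 70.2 ± 12.4 in ABX 5xFAD mice (n = 6). *Casp4*, the sensor of cytosolic lipopolysaccharide, averaged 17.0 ± 2.702 CPM in SPF WT and 19.1 ± 1.36 in SPF 5xFAD, 13.0 ± 2.45 in GF WT and 13.9 ± 4.29 in GF 5xFAD, and 17.7 ± 2.11 in ABX WT and 15.3 ± 4.48 in ABX 5xFAD mice (SD). Both GF groups had the lowest *Casp4* means, with log2 differences from SPF of -0.38 ± 0.21 in WT (0.376) and -0.45 ± 0.22 in 5xFAD mice (0.195), neither of which passed.

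*Gsdmd*, the executioner of pyroptosis, had a lower mean in 5xFAD microglia in each housing and passed the test in GF and ABX mice. The SPF WT mice had 195, 196, 232, 235 and 242 CPM and the SPF 5xFAD mice 182.2, 206 and 195 CPM. GF WT mice had 216, 214, 236 and 221 CPM and GF 5xFAD mice 157, 176, 201.5, 169.8 and 198 CPM, with no overlap. ABX WT mice had 221, 219.5, 178, 267 and 206 CPM, and ABX 5xFAD mice lay between 163 and 214 CPM with a median of 175. In SPF mice the ranges overlapped, with a log2 difference of -0.18 ± 0.11 (adjusted p = 0.542 by edgeR). The fall was 0.30 ± 0.10 in GF (0.0444) and 0.27 ± 0.09 in ABX mice (0.0444) on the log2 scale. The calls in GF and ABX mice lay near the threshold and were lost in 13 and 17 of 38 alternatives, with adjusted p-values up to 0.130 without FAD_GF_181 and 0.179 without WT_ABX_923. The averaged fall held in all 37 alternatives, with adjusted p-values up to 0.00865.

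The 2 IL-1 agonists behaved differently. *Il1a*, whose product is active without caspase-1, averaged 157 ± 19.6 CPM in SPF WT and 126 ± 10.9 in SPF 5xFAD, 125 ± 36.0 in GF WT and 117 ± 9.75 in GF 5xFAD, and 155 ± 35.4 in ABX WT and 132 ± 36.8 in ABX 5xFAD mice (SD), and was called by edgeR with TMM in no comparison. *Il1b* varied far more. It stood at 5.42, 1.65, 2.63, 1.16 and 4.63 CPM in SPF WT mice, from 27 to 133 reads, and at 11.9, 8.71 and 6.40 CPM in SPF 5xFAD mice. In GF WT mice it was 10.3, 1.74, 9.87 and 0.902 CPM, and in GF 5xFAD mice 31.8, 18.5, 14.3, 21.6 and 16.0 CPM. The 5xFAD mice lay above the WT mice without overlap in SPF and in GF housing, and all 5 GF 5xFAD mice also lay above all 3 SPF 5xFAD mice. In ABX WT mice the level was 0.515, 4.16, 0.951, 16.0 and 0.198 CPM and in ABX 5xFAD mice 2.35 to 16.6 CPM with a median of 6.498, and these overlapped.

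The averaged rise of *Il1b* passed, whereas the differences within single housings did not: 1.54 ± 0.82 in SPF (adjusted p = 0.427 by edgeR), 1.83 ± 0.79 in GF (0.124) and 0.84 ± 0.71 in ABX mice (0.487) on the log2 scale. Voom with quality weights, which the study used, called *Il1b* in each: 2.65 for GF (0.00403), 2.51 for ABX (0.0265) and 1.67 for SPF mice (0.0349). Without WT_ABX_923, the mouse at 16.0 CPM, the ABX difference was 2.48 (0.0187) by edgeR. The difference of 1.18 ± 0.85 between GF and SPF 5xFAD mice missed the threshold (0.407) but passed with voom (1.33, 0.0252) and when only these groups were fitted (1.16, 0.0317). *Il1b* is a neutrophil transcript too, and the SPF 5xFAD mice carried neutrophil genes. In GF 5xFAD mice, where *Il1b* was highest, 6 of the 9 neutrophil genes, among them *S100a8*, *S100a9*, *Ltf* and *Ly6g*, had 0 reads in all 5 mice, *Camp* and *Ngp* had at most 1 read, and *Cxcr2* reached 1.38 CPM, above the 0.198 CPM it reached in SPF 5xFAD mice. In the 3 SPF 5xFAD mice the summed neutrophil genes had the order of *Il1b*, at 263, 190 and 61.1 CPM. FAD_ABX_1151, at 144 CPM of neutrophil genes, had 4.79 CPM of *Il1b*, within the range of the other ABX 5xFAD mice. The part of neutrophils in the *Il1b* values was not tested. Monocytes are known to express *Il1b* as well. Within the 6 ABX 5xFAD mice, and within the 3 SPF 5xFAD mice, the order of the summed monocyte genes was that of *Il1b*, from 14.4 CPM in the mouse with 2.35 CPM of *Il1b* to 52.0 CPM in the one with 16.6 CPM in ABX 5xFAD mice. In GF 5xFAD mice the orders differed, and the mouse highest in *Il1b* had 14.8 CPM of monocyte genes. They differed in all 3 WT groups too. In GF WT mice WT_GF_199, highest of its group in *Il1b* at 10.3 CPM, had the lowest monocyte sum at 3.72 CPM, and in ABX WT mice WT_ABX_923, at 16.0 CPM of *Il1b*, had 9.05 CPM against 9.32 CPM in WT_ABX_911, which had 0.951 CPM of *Il1b*. The part of monocytes in the *Il1b* values was not tested. Leaving out the 4 libraries with neutrophil genes gave 1.38 ± 0.56 for the average over GF and ABX mice, with an adjusted p of 0.0714.

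Immediate early genes, which cell isolation can raise, were compared as a list beside *Il1b*, itself quickly inducible. In GF against SPF 5xFAD mice 7 of 20 tested genes of this list were higher (6.97% of all genes were), with a list median of 0.60 and a median of 0.02 over all genes, among them *Atf3* (0.91 ± 0.25, adjusted p = 0.0188), *Ier2* (1.06 ± 0.28, 0.0136) and *Jund* (0.96 ± 0.20, 0.00344). In 5xFAD against WT mice on average 4 of the 20 were higher (14.3% of all genes were), led by *Atf3* (1.37 ± 0.13, 2.56e-09) and *Egr1* (1.08 ± 0.27, 0.00363), and 3 were lower (10.8% of all genes), with a list median of 0.00. The summed level of the list was 1394 to 1561 CPM in GF 5xFAD, 1092 to 1179.5 CPM in SPF 5xFAD, 1335 to 1464 CPM in SPF WT, 1386 to 1815 CPM in GF WT, 1121 to 1435 CPM in ABX 5xFAD and 1288 to 1451 CPM in ABX WT mice. In ABX against GF 5xFAD mice 4 of the 20 were lower (6.07% of all genes were), with a list median of -0.38 and one of 0.01 over all genes. Its part in the *Il1b* values was not tested.

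**Figure D4:**
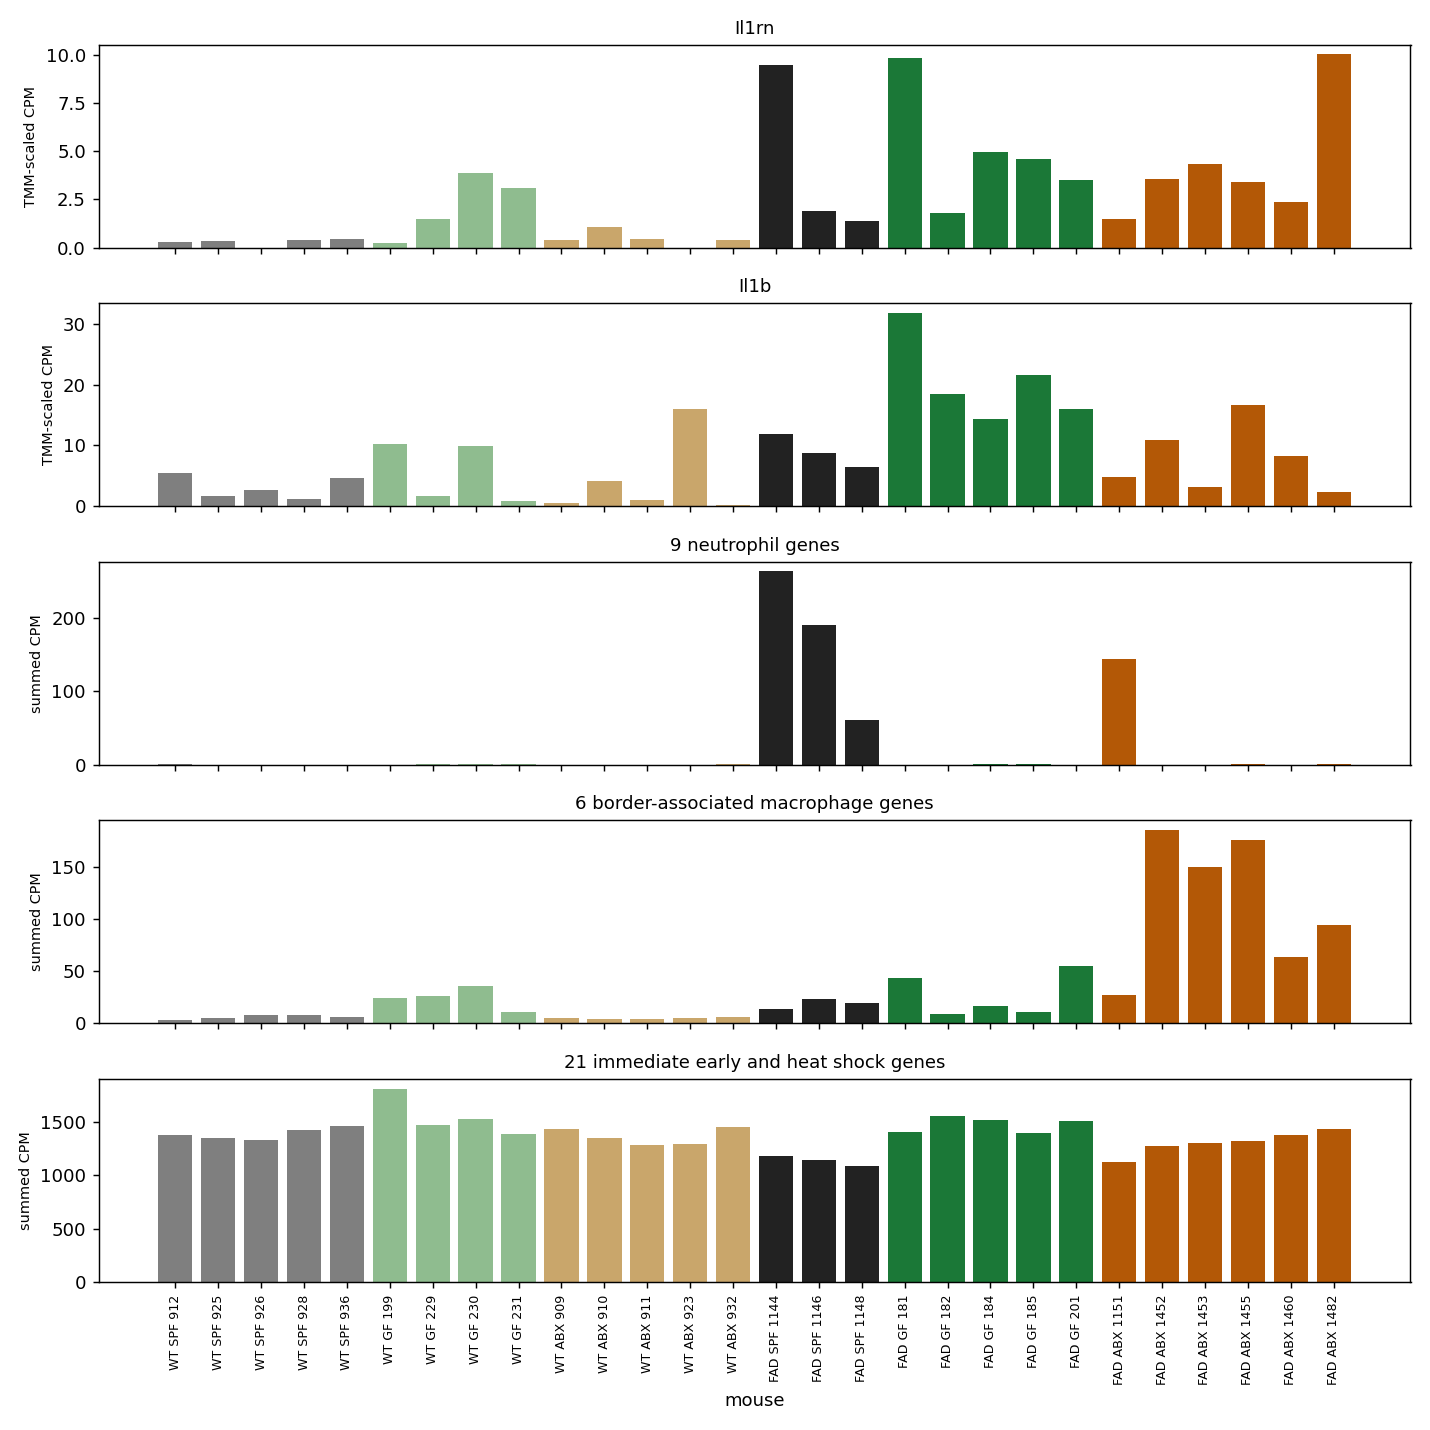
*Il1rn* and *Il1b* (TMM-scaled CPM) above the summed CPM of 9 neutrophil, 6 border-associated macrophage and 21 immediate early and heat shock genes, with 1 bar per mouse coloured by group. The neutrophil bars stand in the 3 SPF 5xFAD mice and FAD_ABX_1151, the macrophage bars in ABX 5xFAD mice up to 185.5 CPM, and the highest *Il1b* bars in GF 5xFAD mice.

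*Il1a* and *Il1b* are neighbours on chromosome 2, at chr2:129299610-129309972 and chr2:129364570-129371139 on the minus strand (GRCm38). Their promoters are shown because both genes hold a TATA box core in the same place while their levels and variation differ widely. The 250 bases before the start are chr2:129309973-129310222 for *Il1a* and chr2:129371140-129371389 for *Il1b* (RefSeq, GRCm38.p6, minus strand). Capitals mark TATAAA, 32 bases before the start of *Il1a* and 31 before that of *Il1b*, and the AP-1 site TGANTCA, 12 bases before the start of *Il1a*.
Il1a: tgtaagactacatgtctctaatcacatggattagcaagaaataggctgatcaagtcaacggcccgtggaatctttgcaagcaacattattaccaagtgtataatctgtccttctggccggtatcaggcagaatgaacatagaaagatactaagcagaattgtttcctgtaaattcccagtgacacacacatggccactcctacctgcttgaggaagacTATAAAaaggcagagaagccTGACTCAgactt
Il1b: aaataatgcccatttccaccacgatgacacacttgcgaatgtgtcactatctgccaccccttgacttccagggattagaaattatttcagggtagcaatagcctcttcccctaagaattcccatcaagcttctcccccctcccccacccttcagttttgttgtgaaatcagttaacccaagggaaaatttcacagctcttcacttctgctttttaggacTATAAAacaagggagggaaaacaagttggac
TATAAA occurs in 12.4% and TGANTCA in 6.75% of all promoters of this length, on either strand. RefSeq promoters were at hand for 9 of the 10 members, 13 windows in all, and TATAAA was found in 1 further member window, of *Il18*, on the opposite strand and 175 bases before the start. Exons of *Il1a* share 222 bases with *Gm14023* and those of *Il1b* share 25 bases with the antisense gene *Il1bos*, which had 0 to 45 reads.

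*Il18*, the other cytokine that caspase-1 cuts, fell in 5xFAD mice on average, where *Il1b* rose. ABX WT mice had 41.2, 41.9, 52.6, 39.8 and 37.4 CPM, above all 6 ABX 5xFAD mice, which ranged from 20.9 to 36.1 CPM with a median of 28.5. SPF WT mice had 42.4, 32.2, 27.8, 26.8 and 36.4 CPM and SPF 5xFAD mice 29.6, 24.7 and 28.7 CPM. GF WT mice had 26.6, 31.3, 36.8 and 32.2 CPM and GF 5xFAD mice 22.4, 27.8, 28.03, 28.9 and 26.8 CPM, so these ranges met. In ABX 5xFAD mice *Il18* fell by 0.58 (log2; SE 0.13, adjusted p = 0.00342 by edgeR), with differences of -0.26 ± 0.16 in SPF (0.552) and -0.24 ± 0.15 in GF mice (0.301). The GF difference was -0.41 and passed (0.0456) with gene length offsets, in 1 of 38 alternatives. The ABX fall and the averaged fall held in all 38 and 37 alternatives, with adjusted p-values up to 0.0258 and 0.0102.

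*Il1rn*, whose product blocks the IL-1 receptor without signalling, had the largest relative change among the members and the lowest level. SPF WT mice had 0.285, 0.345, 0, 0.388 and 0.421 CPM, which were at most 9 reads, and ABX WT mice 0.401, 1.06, 0.416, 0 and 0.395 CPM. SPF 5xFAD mice had 9.45, 1.87 and 1.40 CPM, GF 5xFAD mice 9.83, 1.82, 4.94, 4.58 and 3.53 CPM, and ABX 5xFAD mice 1.47 to 10.0 CPM with a median of 3.47. In SPF and ABX housing every 5xFAD mouse exceeded every WT mouse. GF WT mice had 0.224 CPM, within the ranges of SPF WT and ABX WT mice, and 1.49, 3.86 and 3.09 CPM, above both ranges. They overlapped with GF 5xFAD mice.

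The difference of *Il1rn* was 3.82 ± 0.82 in SPF (adjusted p = 0.00316 by edgeR), 3.21 ± 0.74 in ABX (0.00308) and 1.19 ± 0.72 in GF mice (0.293) on the log2 scale. The SPF call rested on mouse FAD_SPF_1144, the one at 9.45 CPM and also the highest in neutrophil genes at 263 CPM: without it the rise was 2.46, with an adjusted p of 0.162. Neutrophils and other macrophages are known to express *Il1rn* as well. Without the 4 libraries with neutrophil genes the average over GF and ABX mice was 2.29 ± 0.50 (0.00120), and the ABX rise was 3.39 ± 0.72 (0.00160). The ABX 5xFAD mice held more border-associated macrophage genes than the ABX WT mice, 27.3 to 185.5 CPM against 3.80 to 5.64 CPM, and this was not separated from *Il1rn*. GF exceeded SPF WT mice by 2.85 ± 0.78 (0.0575), just short of the threshold and past it in 11 of 36 alternatives, with adjusted p-values between 0.00555 and 0.177. ABX and GF WT mice differed by -2.26 ± 0.77 (0.0716), which passed with DESeq2 (0.0210) and without WT_GF_199 (0.0308). Border-associated macrophage genes summed to 10.5 to 35.4 CPM in GF WT and 3.40 to 8.15 CPM in SPF WT mice. WT_GF_199, lowest of GF WT mice in *Il1rn*, had 24.0 CPM of them. Their part in these differences was not tested. The 5xFAD effects in GF and SPF mice differed by -2.63 ± 1.07 (0.509).

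The *Il1rn* gene lies at chr2:24336853-24351494 on the plus strand (GRCm38) and has 3 RefSeq promoters, which counts per gene cannot tell apart. The one at the start of the gene, chr2:24336610-24336859 (GRCm38.p6, plus strand), is shown as that of the member with the largest change, and capitals mark the AP-1 site TGANTCA, 141 bases before the start.
Il1rn: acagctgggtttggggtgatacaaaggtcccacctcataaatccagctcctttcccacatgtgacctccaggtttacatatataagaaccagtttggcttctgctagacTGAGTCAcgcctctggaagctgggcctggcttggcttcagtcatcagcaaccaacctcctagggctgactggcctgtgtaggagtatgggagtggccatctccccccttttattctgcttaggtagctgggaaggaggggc
No member promoter held the interferon-stimulated response element core GAAANNGAAA, which 2.98% of all promoters hold.

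Genes around the pathway were examined as 3 lists. Of 25 other inflammasome and pyroptosis genes tested, 8 differed between 5xFAD and WT on average, 2 higher and 6 lower, with a list median of -0.07. Over all tested genes 25.1% differed, 14.3% higher and 10.8% lower. The nucleic acid sensors *Zbp1* (2.60 ± 0.37, adjusted p = 3.10e-06) and *Ifi204* (1.98 ± 0.21, 1.16e-08), both interferon-stimulated, rose, and each rose within SPF, GF and ABX mice. *Zbp1* averaged 1.77 ± 0.583 CPM (SD) in SPF WT and 10.4 ± 0.595 CPM in SPF 5xFAD mice, 2.41 ± 3.77 CPM in GF WT and 14.6 ± 5.996 CPM in GF 5xFAD mice, and 1.96 ± 1.31 CPM in ABX WT and 12.4 ± 9.62 CPM in ABX 5xFAD mice. Those lower were the sensor *Nlrp1b* (-0.66 ± 0.10, 1.13e-05), *Txnip* (-0.57 ± 0.07, 1.10e-07), which binds NLRP3, *Gbp7* (-0.46 ± 0.09, 0.000232), *Gbp3* (-0.41 ± 0.13, 0.0173), *Casp8* (-0.37 ± 0.06, 1.54e-05) and *P2rx7* (-0.16 ± 0.05, 0.0270). The difference of *P2rx7* was -0.48 ± 0.09 in GF (0.000301), -0.14 ± 0.10 in SPF (0.643) and 0.15 ± 0.08 in ABX mice (0.248), and the 5xFAD effect in ABX minus GF mice was 0.62 ± 0.12 (0.0104), the 1 call of this list in that test (background 1.76%). Between GF and SPF 5xFAD mice 5 genes of this list fell (5.86% of all genes did) and none rose (6.97%), with a list median of -0.26 against 0.02 over all genes: *Nlrp1b* (-1.01 ± 0.19, 0.00170), *Naip6* (-0.94 ± 0.15, 0.000742), *Naip2* (-0.60 ± 0.15, 0.00789), *Gbp7* (-0.52 ± 0.17, 0.0357) and *P2rx7* (-0.35 ± 0.10, 0.0188). NAIP proteins recognise flagellin and parts of bacterial secretion systems, and P2RX7 is the ATP-gated channel upstream of NLRP3. In ABX against GF 5xFAD mice 5 of the 25 were higher (4.52% of all genes were): *Nlrp1b*, *Naip6*, *Gbp7*, *P2rx7* and *Nlrc4*, the partner of the NAIP proteins. *Nlrc4* had 0 reads in all 5 GF 5xFAD mice, 0 to 49 in ABX 5xFAD, 1 to 13 in ABX WT and at most 5 in the other mice. It passed the filter on low counts through the ABX groups, so its call is not read as a result. The count of 5 is too high by this gene. *Naip2* and *Naip6* are closely related paralogs whose reads counting could split.

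Of 9 other IL-1 family ligands and receptors tested, 4 were higher in 5xFAD on average (14.3% of all genes were) and none was lower (10.8%), with a list median of 0.78. They were *Il18rap* (2.05 ± 0.63, adjusted p = 0.0160), a subunit of the IL-18 receptor, *Il1r1* (1.39 ± 0.33, 0.00175), the signalling IL-1 receptor, *Il1rl1* (0.94 ± 0.30, 0.0195), the IL-33 receptor, and *Il18bp* (0.78 ± 0.18, 0.00143), the secreted inhibitor of IL-18. All 4 were at low levels, with means over all mice of 2.08 CPM for *Il18rap*, 4.16 CPM for *Il1r1*, 15.6 CPM for *Il1rl1* and 5.39 CPM for *Il18bp*. *Il18bp* averaged 10.6 ± 2.84 CPM (SD) in GF 5xFAD against 5.84 ± 0.9995 in SPF 5xFAD and 4.56 ± 1.27 in ABX 5xFAD mice. Its log2 difference of ABX from GF 5xFAD mice was -1.21 ± 0.28 (adjusted p = 0.00642 by edgeR), while GF and SPF 5xFAD mice did not differ by this test. *Il33* had 0 reads in all 5 GF 5xFAD mice, 9 to 18 reads in SPF 5xFAD mice and at most 19 in any mouse. It passed the filter on low counts through the groups where it was present. Its call in GF against SPF 5xFAD mice (adjusted p = 0.0161 by edgeR) is thus not read as a result. No fold is given.

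Of 26 genes of IL-1 receptor signalling and NF-κB, all of them tested, 3 were higher (14.3% of all genes were) and 7 lower (10.8%) in 5xFAD on average, with a list median of -0.03, equal to that of all genes. *Nfkbiz*, an inducible regulator of secondary NF-κB targets, rose by 0.56 ± 0.12 (adjusted p = 0.000815). *Rel* (-0.56 ± 0.14, 0.00263), *Nfkbie* (-0.50 ± 0.09, 0.000144), *Tab2* (-0.41 ± 0.09, 0.00130), *Peli1* (-0.37 ± 0.05, 1.35e-06), *Nfkb1* (-0.29 ± 0.06, 0.000184) and *Chuk* (-0.24 ± 0.06, 0.00231) fell. *Rel* and *Nfkb1* encode NF-κB subunits, *Nfkbie* an inhibitor of NF-κB, *Tab2* a kinase adaptor, *Peli1* a ubiquitin ligase and *Chuk* a kinase that acts on NF-κB inhibitors. *Tab3* alone of this list differed in GF against SPF 5xFAD mice, 1 of 26 genes (-1.15 ± 0.33, 0.0218), where 12.8% of all genes did.

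**Figure D5:**
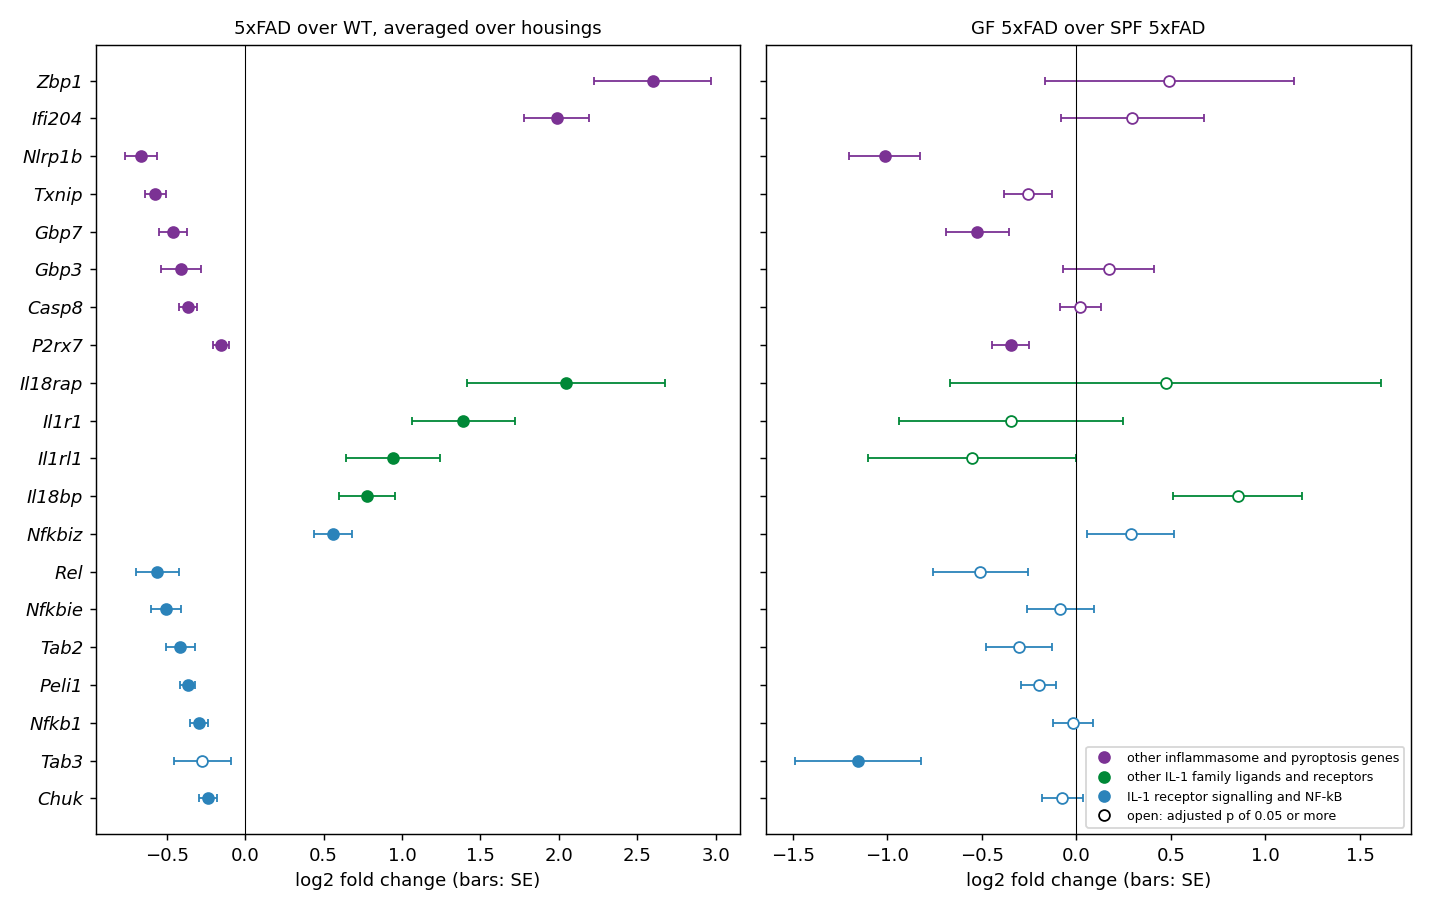
Log2 fold changes with SE bars of named genes from the 3 related lists, for 5xFAD over WT averaged over housings (left) and for GF over SPF 5xFAD mice (right); filled symbols have an adjusted p below 0.05. *Zbp1* at 2.60 and *Ifi204* at 1.98 lead on the left, *Nlrp1b* at -1.01 and *Tab3* at -1.15 are lowest on the right, and *Il33* is not drawn.

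For the 3 members with the largest F, the genes whose log2 CPM followed them most closely over the 28 mice were sought among the 8930 genes that averaged 3 log2 CPM or more. These correlations share the libraries and their depth and are given as a description. *Aim2* was followed by *Zfp329* (r = 0.88), *Zfyve16* (0.87), *Cebpz* (0.87), *Wdr44* (0.87) and *Rock2* (0.87), which stayed between 0.63 and 0.77 after group means were removed. *Pycard* was followed by *6330418K02Rik* (0.80), *Slc35a1* (0.79), *Gpr34* (0.77), *Srsf5* (0.77) and *Clec5a* (0.75), with 0.28 to 0.63 after removal. *Il1rn* was followed by *Iqgap1* (0.86), *Pqlc2* (0.84), *Ifi204* (0.84), *Echs1* (0.84) and *Serpine2* (0.84), with 0.48 to 0.60 after removal. Among the members themselves *Casp1* and *Casp4*, neighbours on chromosome 9, had the highest correlation once group means were removed (0.52), and *Il1b* and *Il1rn*, which both rose in 5xFAD mice, had -0.28.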

How the data were processed

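The data are the deposited raw read counts per gene of 28 libraries, 1 per mouse, from RNA of sorted hippocampal microglia, with a summed exon length per gene from the authors' counting. Per the study's methods, libraries were made with a SMARTer and Nextera XT protocol, reads were aligned to GRCm38 with STAR and counted with featureCounts on GENCODE M21; per the labels the versions were STAR 2.7.2 and featureCounts 1.6.2. The labels name a human build instead, which does not match mouse symbols. No count was normalized by the authors. The 92 spike-in entries were left out and all per-sample columns were used. Groups were taken from titles; replicate numbers are animal names and pair no samples.

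Counts were analysed in R 4.3.3 with edgeR 4.0.16: filterByExpr (minimum count 10, total 15), which kept 15298 genes, TMM, 1 term per group over all 28 mice, the quasi-likelihood test, and Benjamini-Hochberg adjustment at a threshold of 0.05. The study's own test, limma's voomWithQualityWeights (limma 3.58.1), DESeq2 1.42.0, other scalings, filters and sample sets, and leaving out each mouse were alternatives. CPM of members and named genes are TMM-scaled, those of cell type markers refer to library totals, and TPM used the deposited lengths. Error bars are SD over mice or SE of the fit. On simulated counts with 200 changed genes and a log2 fold change of 1.5, edgeR recovered 85% for GF 5xFAD against GF WT mice and 86% for SPF mice over 15298 genes. The changed genes were drawn above a floor of expected reads. The simulation thus gives no rate for genes below that floor or for smaller changes, such as the falls of members reported here. The members with the lowest counts were *Il1rn*, with 0 to 184 reads per library, and *Il1b*, with 6 to 596, so counting error weighs most on these.

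The members, the related lists and the tests were chosen with earlier results of these data known, and no list was tested as a set. Text names all 10 members, up to 8 genes per related list that passed in the averaged 5xFAD contrast or in GF against SPF 5xFAD mice by size of the averaged change, and the 5 most alike genes of the 3 members with the largest F; *Naip2* and *Naip6*, which fell in GF against SPF 5xFAD mice, and *Nlrc4* are named in addition, after their values were seen. One gene was left out of the related lists and is not reported here. Promoters are from RefSeq (GRCm38.p6). Figures were drawn with matplotlib 3.10.9.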

Additional observations from a re-analysis of the deposited data

Results flagged for a closer look

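In 50 tests of single mice within groups of 4 to 6 (chance gives about 1 in 20), 2 values of members stood apart from the rest of their group. *Il1b* was 16.0 CPM in mouse WT_ABX_923, against 0.198 to 4.16 CPM in the other 4 ABX WT mice. *Il1rn* was 10.0 CPM in mouse FAD_ABX_1482, against 1.47 to 4.33 CPM in the other 5 ABX 5xFAD mice. Without mouse WT_ABX_923 the *Il1b* difference in ABX 5xFAD mice was 2.48 in place of 0.84 on the log2 scale (adjusted p = 0.0187 by edgeR). No member's 5xFAD effect differed between housings in the tests of that difference. Among the related genes named in the text, the effect on *P2rx7*, an ATP-gated channel, differed between ABX and GF mice by 0.62 ± 0.12 on the log2 scale (adjusted p = 0.0104 by edgeR). Its means were 277 CPM in ABX 5xFAD and 250.3 CPM in ABX WT mice, against 195 CPM in GF 5xFAD and 271 CPM in GF WT mice.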

How the results depend on the processing

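The 16 differences of single members that passed kept their direction in all 595 refits and their side of the threshold in 540. In the averaged 5xFAD contrast 4 to 7 members passed, in the F test 4 to 8, and in ABX against SPF mice and the 3 tests of housing against genotype 0 in each refit. Leaving out single mice gave 0 to 1 in SPF, 0 to 2 in GF and 3 to 5 in ABX mice for 5xFAD against WT, 1 for GF against SPF 5xFAD, 0 to 1 for ABX against GF 5xFAD, 0 to 1 for GF against SPF WT and 0 to 2 for ABX against GF WT mice. For 5xFAD against WT in SPF mice 0 passed with at least 10 counts in every library, which drops *Il1rn*, and 2 with voom and with only the groups compared. In GF mice 1 passed without a low-count filter, with at least 10 counts in every library and with only the groups compared, and 3 with gene length offsets, which added *Il18*. In ABX mice 2 passed with only the groups compared. For GF against SPF 5xFAD mice 2 passed with voom and with only the groups compared. For ABX against GF 5xFAD mice 0 passed with voom, with only the groups compared, without mice FAD_ABX_1151 and FAD_ABX_1482, and without the libraries of the second numbering style, the last chosen after seeing the data. For GF against SPF WT mice 1 passed, *Il1rn*, with no filter, DESeq2, voom, only the groups compared, gene length offsets, the 26 mice without those 2, and a threshold of 0.1. For ABX against GF WT mice 3 passed with DESeq2 and with a threshold of 0.1. Where not stated, the cause was not tested. Library size alone as the scaling moved the median of all genes by -0.12 in GF 5xFAD against GF WT mice; under it *Casp1* and *Casp4*, which were not called, changed sign in the averaged contrast (-0.01 and -0.06), and *Il1a* passed there (-0.30, 0.0306). No paired analysis was possible because replicate numbers are animal names that the groups do not share. Depth limits *Il1rn* and *Il33*, whose WT or GF values rest on few or no reads.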
